A study of Mus musculus with 56 samples.

Results

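The comparison described here set the liver of 5 male mice given the highest dose of chrysene (D3, 150 mg/kg body weight per day) against the liver of 5 male mice given the olive oil vehicle alone (D0). These 10 arrays, chosen by tissue and dose in the sample titles, were 10 of the 56 arrays of the series. All mice were MutaMouse animals, a transgenic strain that carries a bacterial reporter for scoring mutations, aged about 14 weeks, and were gavaged daily for 28 days with sampling 72 hours after the last dose. Liver was also taken at 17.5 (D1, 5 mice) and 50 mg/kg per day (D2, 4 mice), and lung and forestomach came from the same animals. Each array held liver RNA of 1 mouse in Cy5 and a reference RNA pooled from mouse cell lines in Cy3. Every level below is therefore a log2 ratio of liver to that reference, and a difference of 1 is a doubling. Levels of different genes are not comparable on this scale, because each is relative to its own level in the reference.

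Chrysene is a polycyclic aromatic hydrocarbon. Compounds of this class can bind the aryl hydrocarbon receptor (AhR), which moves to the nucleus with its partner Arnt and switches on xenobiotic metabolism genes such as Cyp1a1, Cyp1a2 and Cyp1b1. The enzymes so induced can turn the parent compound into reactive metabolites that bind DNA, and damaged DNA can engage p53 and its targets. In mouse liver Cyp1a2 is expressed constitutively, whereas Cyp1a1 is barely expressed until the receptor is activated. The liver also has strong daily rhythms, in which Arntl (Bmal1) and Clock drive Dbp, Tef and the Per and Cry genes.

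The promoter stretches shown belong to genes of the groups described next. The AhR and clock stretches are ones that hold the motif marked, and are not those of the genes with the largest differences. Each stretch is the 250 bases before the annotated transcription start on the gene's own strand, from RefSeq on build GRCm38.p6. Cyp1a1 (chr9:57697363-57697612, plus strand) and Tiparp (chr3:65528197-65528446, plus strand) stand for the AhR targets, and capitals mark the response element core GCGTG on either strand, which lies 54 and 170 bases before the start. Tef (chr15:81802423-81802672, plus strand) and Per3 (chr4:151044666-151044915, minus strand) stand for the clock genes, and capitals mark the E-box CACGTG in Tef and the D-box TTATGTAA in Per3, both searched on either strand. The Tef stretch is the first of 2 entries, and the second also holds CACGTG.
Cyp1a1: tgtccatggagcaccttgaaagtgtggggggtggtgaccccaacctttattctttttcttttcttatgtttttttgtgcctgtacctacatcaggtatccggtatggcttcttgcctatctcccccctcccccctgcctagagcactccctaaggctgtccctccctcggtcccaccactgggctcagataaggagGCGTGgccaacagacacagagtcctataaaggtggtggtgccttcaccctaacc
Tiparp: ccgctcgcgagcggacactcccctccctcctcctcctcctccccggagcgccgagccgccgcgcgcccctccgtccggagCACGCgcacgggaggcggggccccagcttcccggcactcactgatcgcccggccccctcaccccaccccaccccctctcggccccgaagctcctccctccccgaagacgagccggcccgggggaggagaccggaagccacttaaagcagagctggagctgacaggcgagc
Tef: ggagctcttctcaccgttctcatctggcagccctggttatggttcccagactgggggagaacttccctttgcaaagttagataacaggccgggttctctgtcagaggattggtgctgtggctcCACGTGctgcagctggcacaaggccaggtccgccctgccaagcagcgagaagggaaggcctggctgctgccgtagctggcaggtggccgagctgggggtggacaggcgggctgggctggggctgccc
Per3: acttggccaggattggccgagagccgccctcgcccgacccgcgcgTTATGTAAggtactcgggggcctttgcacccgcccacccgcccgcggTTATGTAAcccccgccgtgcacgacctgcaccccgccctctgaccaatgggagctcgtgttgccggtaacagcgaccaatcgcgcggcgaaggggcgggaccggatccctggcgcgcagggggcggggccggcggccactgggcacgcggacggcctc
Of 32851 RefSeq promoter stretches of this length, 28.2% held GCGTG, 6.02% held CACGTG and 0.819% held TTATGTAA. No GCGTG was found in the same window of Cyp1a2 or Nqo1, no CACGTG in that of Dbp, Cry2, Per3 or the second of 2 Per1 entries, and no TTATGTAA in that of Dbp. These matches are a description of the letters and no evidence of binding. The 2 remaining stretches belong to the acute phase genes Saa1 and Saa2 and are given with their values.

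The label was checked against markers of liver cell types. All 10 hepatocyte markers were tested, with a mean log2 ratio over the list between 7.16 and 7.23 in the 5 D0 mice and between 6.98 and 7.30 in the 5 D3 mice. Albumin (Alb) averaged 6.39 in D0 and 6.33 in D3. Fewer were tested for some other types: 1 of 5 for adipocytes and for skeletal muscle, 2 of 5 for B cells and 3 of 6 for cholangiocytes. T cells, neutrophils, erythroid and pancreatic acinar cells had 3 of 5 each. None of the tested markers of hepatocytes, cholangiocytes, Kupffer cells, endothelial, stellate, blood or neighbouring tissue cells had an unadjusted p of at most 0.05. The smallest p among them belonged to the pancreatic enzyme gene Cel (log2 difference -0.17, unadjusted limma p 0.0515). In these bulk samples, fewer cells of a type and less RNA per cell cannot be told apart. Between 34.5% and 46.4% of spots were well above background on the liver arrays, and no tested probe was saturated. The array of D3 mouse 19 had the lowest share and stood apart from the rest, with a correlation of 0.979 with the median array. The 10 arrays lay on 3 slides that each held both groups. Slide 1 held D0 mice 1 and 5 and D3 mouse 20. Slide 2 held D0 mouse 2 and D3 mice 16 and 17, and slide 3 D0 mice 3 and 4 and D3 mice 18 and 19. On the axis of largest spread between liver arrays (21.1% of the variance), the slide 1 mice lay at -24.2, -28.4 and -22.7. The other D0 and D3 arrays lay between -1 and 25.6.

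No probe passed the test between D3 and D0. Of 24795 probes tested by limma, 0 (0%) had an adjusted p of at most 0.05 together with a change of at least 1.5-fold, and 0 did without the fold limit. The smallest adjusted p was 0.721. With the unadjusted p alone, at the same limit of 0.05, 1183 probes (4.77%) were counted, of which 608 were higher (2.45%) and 575 lower (2.32%) in D3. With the fold limit as well, 44 remained (0.177%), 28 higher (0.113%) and 16 lower (0.0645%). The 28 made up 63.6% of the 44, against 51.9% after median centring and 80.8% after normexp background correction. The balance turned to lower probes with the array column as a covariate (38.1% higher), without D0 mouse 2 (37.3%) and without D3 mouse 20 (42.2%). Groups did not overlap for 183 probes (0.738%), and for 110 of the named genes by 1 probe each (0.869%).

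How closely the arrays bounded a gene depended on the normalization. With the deposited ratios the 95% interval of the D3 minus D0 difference lay within 1.5-fold in either direction for 23322 probes (94.1%), and for 93.6% of the 12654 named genes. The share of named genes was 91.6% after normexp, 75.2% with the array column as a covariate and 55.5% after median centring. After median centring it was 1 of 16 glutathione S-transferases (11 with the deposited ratios), 2 of 14 targets of the nuclear receptors CAR and PXR (10), 4 of 23 plasma protein genes (22) and 4 of 20 urea cycle and amino acid genes (20). The median standard error of the difference was 0.0976, and 95% of probes had a standard error of at most 0.212. The middle of the distribution was narrow, since the 5th and 95th percentiles of the difference were -0.19 and 0.18.

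**Figure D1:**
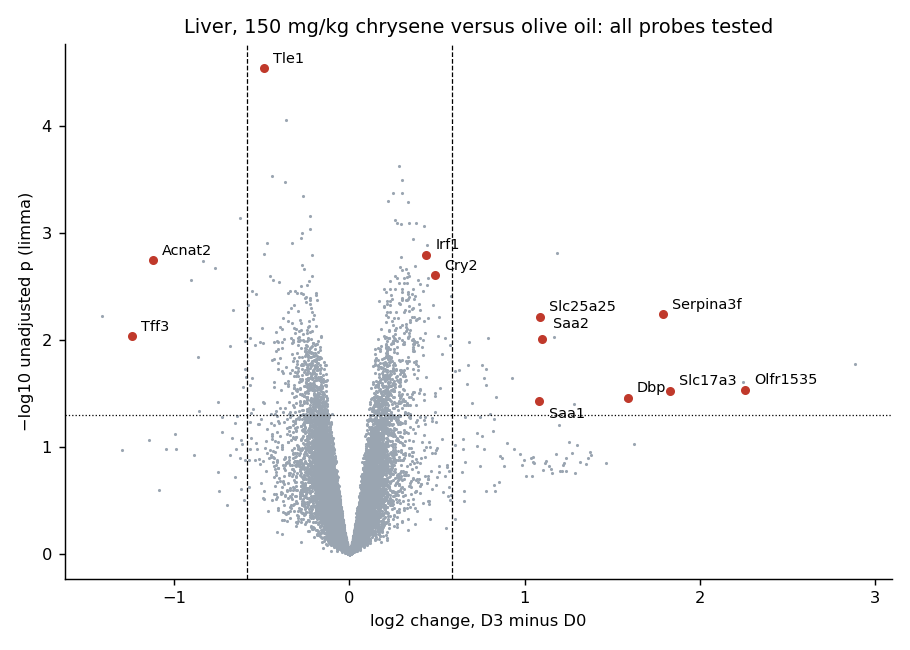
Log2 difference between D3 and D0 (x axis) against the −log10 of the unadjusted limma p (y axis) for each of the 24795 probes tested in liver. Dashed lines mark 1.5-fold and the dotted line an unadjusted p of 0.05; the named genes include Tle1, which had the smallest p of all probes (adjusted p 0.721).

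No AhR target separated the groups. Of 13 genes listed, 10 were tested, and 0 reached an unadjusted p of at most 0.05, beside 4.95% of all named genes. In a fit of only the 10 D0 and D3 arrays 1 was higher at that limit, and the other limma alternatives gave 0. Their median difference was 0.06, beside 0.00 over all named genes, and all 10 intervals lay within 1.5-fold. This held for 5 of 10 with the array column as a covariate, for 7 after median centring and for 8 after normexp. Without D0 mouse 3 it held for 9. Cyp1a1 and Cyp1b1 are among the 10 but were near background, where a narrow interval may not bound the transcript. Over probes detected on all 5 arrays of a group, 8 targets remained, and all 8 intervals lay within 1.5-fold. The mean of the 10 genes ran from -0.23 to 0.02 over the D0 mice and from -0.19 to 0.01 over the D3 mice.

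Cyp1a2, the constitutive hepatic member of the family, read 4.55, 4.54, 4.51, 4.59 and 4.33 in D0 mice 1 to 5. In D3 mice 16 to 20 it read 4.6, 4.65, 4.44, 4.48 and 4.34. D3 mice 16 and 17 lay just above the highest D0 mouse and the other 3 within the D0 range, and the difference was 0.00 (95% interval -0.18 to 0.18, unadjusted limma p 0.981). At D1 and D2, which share the D0 mice, the differences of Cyp1a2 were 0.04 and 0.02.

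Cyp1a1, the classical inducible target, was near background throughout. Only 2 of 5 D0 arrays and 1 of 5 D3 arrays had a Cy5 signal well above background for it. The D0 values were 0.54, 0.10, 0.64, 0.18 and 0.40, and the D3 values 0.30, 0.22, 0.08, 0.00 and 0.71. Both groups covered the same range (difference -0.11, interval -0.39 to 0.16). Signals this low may hide a change below the level at which the probe is detected. In lung, where the probe was well above background on 15 arrays, the same mice had a Cyp1a1 difference of -1.0, and the liver minus lung contrast had an adjusted p of 0.426. In forestomach, where it was well above background on 4 arrays, the difference was 1.07 and the contrast with liver had an adjusted p of 0.74.

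Cyp1b1, a further hydroxylase of polycyclic hydrocarbons, was also dim (well above background on 3 and 2 of 5 arrays) and differed by 0.02 (interval -0.25 to 0.28). Tiparp, an ADP-ribosyltransferase that restrains the receptor, differed by 0.14 (interval -0.10 to 0.38), and a second probe gave -0.06. The intervals of both genes include 0. The quinone reductase gene Nqo1 differed by -0.15 and the aldehyde dehydrogenase gene Aldh3a1 by -0.11. At the other end, Htatip2 differed by 0.21 (interval -0.04 to 0.47, unadjusted p 0.0971), and the glucuronosyltransferase gene Ugt1a6a by 0.13. Of the receptor and its partners and chaperones 6 were tested, and 0 reached the unadjusted limit. Ahr differed by -0.07 and its partner Arnt by 0.06.

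**Figure D2:**
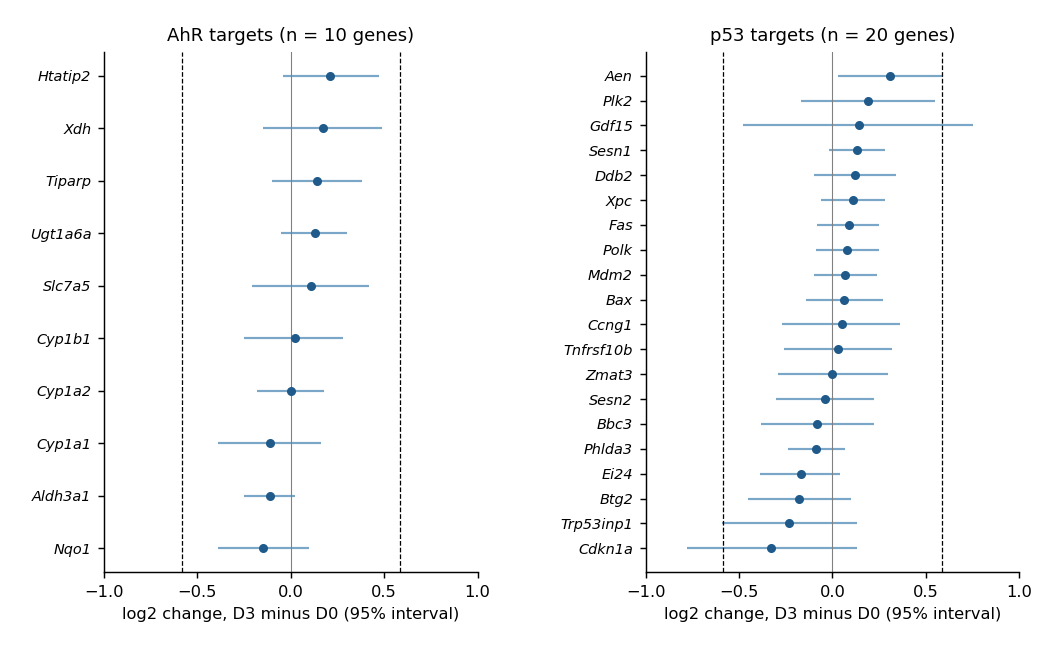
Log2 difference between D3 and D0 with its 95% limma interval (x axis) for each tested AhR target (left, 10 genes) and p53 target (right, 20 genes). Dashed lines mark 1.5-fold. All AhR target intervals lie inside them, with Cyp1a1 and Cyp1b1 near background, and Cyp1a2 sits at 0.00.

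Few genes of the DNA damage response reached the unadjusted limit. Of 20 tested p53 targets, 1 was higher at the unadjusted limit of 0.05 and 0 were lower (background 3.02% and 1.93%, which also applies to the lists that follow), and the median difference was 0.05. The higher count was 0 with array weights, after median centring and without D0 mouse 5 or D3 mouse 18, and 2 without D3 mouse 19. A lower count of 2 was given by slide as a block and without D0 mouse 1, D0 mouse 5 or D3 mouse 17, and a count of 1 without D0 mouse 2. The higher gene was Aen, a nuclease with a role in apoptosis. It read -2.11, -1.75, -1.5, -1.5 and -1.82 in D0 and -1.62, -1.64, -1.03, -1.40 and -1.42 in D3. The D3 mice were shifted upward but overlapped with D0 (difference 0.31, interval 0.03 to 0.59, unadjusted p 0.0295, adjusted p 0.987). A second probe gave 0.30. Cdkn1a (p21), the cell cycle inhibitor most often used as a p53 readout, differed by -0.33 (interval -0.78 to 0.13). Mdm2, the ubiquitin ligase that degrades p53, differed by 0.07, and Ccng1 (cyclin G) by 0.05. Of 27 DNA repair genes 0 reached the unadjusted limit, and the nearest was the helicase gene Ercc2 (difference 0.15, unadjusted p 0.0577). With the array column as a covariate 4 of the 27 were higher, beside 2.55% of all named genes in that fit. The count was 1 after own loess, after normexp, with slide as a block, with only the 10 arrays and without D0 mouse 3, D3 mouse 17 or D3 mouse 20. Of 26 proliferation genes 1 was lower, the mitotic activator Cdc20 (-0.30, unadjusted p 0.0158), with a list median of -0.07. With slide as a block 6 of the 26 were lower at the same limit, beside 3.87% of all named genes in that fit. Without D0 mouse 2 or with the array column none was lower, and without D0 mouse 1 the count was 2.

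Outside the AhR battery, drug-metabolizing enzymes were tested as well. None of the 14 tested targets of CAR and PXR, nuclear receptors that sense foreign compounds, and none of 10 tested conjugation genes reached the unadjusted limit. Cyp2b10, the CAR marker, varied widely in both groups: it read 3.75, 1.33, 3.53, 3.25 and 4.17 in D0 and 4.81, 4.66, 2.52, 1.5 and 3.63 in D3. The interval of its difference was accordingly wide (0.22, -1.08 to 1.51), and the sign turned when single mice were left out. Cyp3a11, the PXR marker, differed by -0.35 (interval -0.92 to 0.22).

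A pair of glutathione S-transferases, enzymes that attach glutathione to electrophiles, were lower at the unadjusted limit, of 16 tested (background 1.93%). The count was 0 after median centring or normexp, and 1 to 3 with 1 mouse left out (1 without D0 mouse 1, D0 mouse 4, D3 mouse 17 or D3 mouse 19). Gstm3 read 3.40, 3.75, 4.47, 3.49 and 3.44 in D0 and 3.30, 3.30, 3.36, 3.26 and 3.17 in D3. The groups did not overlap (difference -0.43, unadjusted p 0.0149, adjusted p 0.97), and without the highest D0 mouse, mouse 3, the difference was -0.24. The second Gstm3 probe gave -0.04. Gsta4 differed by -0.19 (unadjusted p 0.0413) and did not overlap either, beside 0.869% of all named genes. Both genes also stand in the list of NRF2 targets, the oxidative stress genes, where 0 of the other 15 tested reached the limit. Without D3 mouse 20, 1 NRF2 target was higher and 4 were lower. The lower count was 1 without D0 mouse 1, D0 mouse 4, D3 mouse 17 or D3 mouse 19, and 0 after median centring, after normexp and with the array column. Among these, Hmox1 differed by -0.06, Gclc by -0.12 and Txnrd1 by 0.02.

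Among the 28 pathway lists, the medians farthest from 0 were those of the 2 clock lists. This did not hold with the array column as a covariate (interferon response 0.33, endoplasmic reticulum stress 0.26, clock activators -0.21), without D0 mouse 2 (endoplasmic reticulum stress 0.15, clock activators -0.10) or on single slides. Of 16 tested clock output and repressor genes, 3 were higher at an unadjusted p of at most 0.05 (background 3.02%), 0 were lower, and the median difference was 0.30, beside 0.00 over all named genes. The 6 tested activators and antiphase genes all differed in the other direction, with a median of -0.19 and 0 at the unadjusted limit. Of these 6, 2 were lower with slide as a block or only the 10 arrays, and 1 without D0 mouse 3 or D3 mouse 20. No clock gene had an adjusted p below 0.97. With 1 mouse left out, 1 to 4 output genes were higher at that limit (1 without D0 mouse 5, 2 without D0 mouse 1 or 2 or D3 mouse 16, 18 or 19), and the list median lay between 0.15 and 0.41. The count was 1 after median centring and with the array column, 2 after normexp and 2 to 4 in the other limma alternatives. Without D3 mouse 20, 1 output gene was lower. The list mean of the output genes was -0.31, -0.19, 0.50, 0.17 and -0.33 in D0 mice 1 to 5 and 0.45, 0.18, 0.41, 0.51 and -0.21 in D3 mice 16 to 20. Mouse 20 thus sat with the low D0 mice, and mice 3 and 4 with the D3 mice. Mouse 20 was the D3 array on slide 1, beside D0 mice 1 and 5. D0 mice 3 and 4 shared slide 3 with D3 mice 18 and 19. Whether these likenesses follow the mouse or the slide was not tested.

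Dbp, a transcription factor that carries clock timing to metabolic genes, had the largest difference of these. It read -2.22, -2.12, -0.18, -0.26 and -1.99 in D0 and 1.09, -0.18, 0.79, 1.16 and -1.69 in D3. In D3, mice 16, 18 and 19 lay above every D0 mouse, mouse 17 equalled D0 mouse 3, and mouse 20 lay within the D0 range. The difference was 1.59 (standard error 0.70, interval 0.13 to 3.05, unadjusted p 0.0346, adjusted p 1), and a second Dbp probe gave 1.57. Leaving out 1 mouse at a time moved it between 1.36 and 2.07. By slide the Dbp difference was 0.41, 2.58 and 1.19. Dbp in the same mice differed by 1.24 in lung and 0.86 in forestomach, and the contrasts of liver with those tissues had adjusted p of 0.941 and 0.892.

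Cry2, a repressor of the clock, read 0.58, 0.56, 1.02, 0.90 and 0.65 in D0 and 1.41, 1.17, 1.29, 1.55 and 0.74 in D3. In D3, 4 of the 5 mice exceeded all D0 mice and mouse 20 did not (difference 0.49, unadjusted p 0.00248, adjusted p 0.97). By slide the Cry2 difference was 0.12, 0.73 and 0.46. Per3 was called well above background on 0 of 5 D0 and 1 of 5 D3 arrays, so its difference of 0.36 rests on signals near background. Tef, a close relative of Dbp, differed by 0.66 (interval -0.01 to 1.33, unadjusted p 0.0525). Per1 and Per2 differed by 0.12 and 0.29, with intervals of -0.74 to 0.97 and -0.22 to 0.80.

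Arntl, the activator whose transcript peaks when Dbp is low, mirrored Dbp by mouse. It read 1.48, 1.32, 0.49, 0.82 and 1.34 in D0 and -0.05, 0.84, -0.07, -0.10 and 1.18 in D3. The D3 mice with high Dbp had the lowest Arntl, and mice 17 and 20 kept D0 levels (difference -0.73, interval -1.53 to 0.07, unadjusted p 0.0725). Nfil3, a repressor of the same target sites as Dbp, differed by -0.47 (unadjusted p 0.114). At D1 and D2, against the same D0 mice, the differences were 0.56 and 2.24 for Dbp and -0.17 and -1.23 for Arntl.

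**Figure D3:**
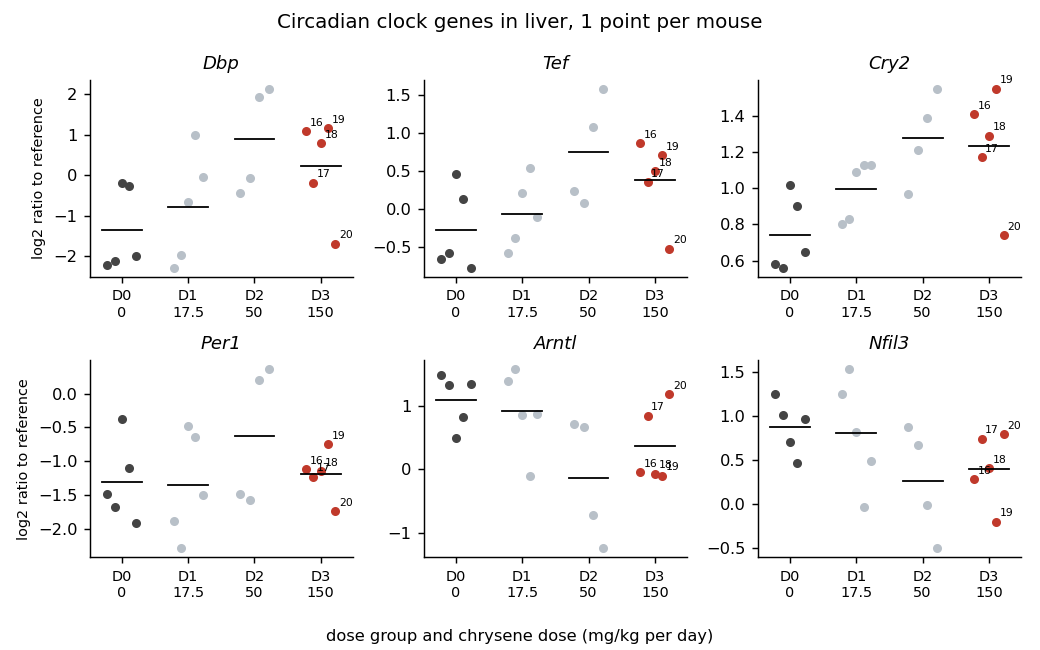
Log2 ratio to reference (y axis) of 6 clock genes in liver by dose group (x axis, mg/kg per day), 1 point per mouse with bars at group means; D3 points carry the mouse number. In D3, mouse 20 lies with the D0 mice in Dbp (-1.69), Cry2 (0.74) and Arntl (1.18). Mouse 20 is the D3 array of slide 1, which also held D0 mice 1 and 5.

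Among acute phase genes, the difference was largest in a pair of serum amyloid A genes. Of 21 tested, 2 were higher at the unadjusted limit (background 3.02%), 0 were lower, and the list median was 0.04. The count of higher genes was 1 without D0 mouse 1, D0 mouse 2, D3 mouse 17 or D3 mouse 20, and 3 without D3 mouse 19. It was also 1 after median centring and with only the 10 arrays, and 3 after normexp and with slide as a block. One gene was lower after own loess, with slide as a block and without D0 mouse 1. The 2 were Saa1 and Saa2, neighbouring genes on chromosome 7 that encode liver-made inflammatory lipoproteins. Their promoter stretches, Saa1 at chr7:46742981-46743230 (minus strand) and Saa2 at chr7:46751583-46751832 (plus strand), were 94.8% identical over 251 aligned columns. Capitals mark the bases that differ or have no partner.
Saa1: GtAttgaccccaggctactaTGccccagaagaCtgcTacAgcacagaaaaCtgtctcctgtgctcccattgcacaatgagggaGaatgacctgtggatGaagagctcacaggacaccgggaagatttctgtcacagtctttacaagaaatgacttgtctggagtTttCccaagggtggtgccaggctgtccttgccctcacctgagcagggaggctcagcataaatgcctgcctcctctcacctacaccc
Saa2: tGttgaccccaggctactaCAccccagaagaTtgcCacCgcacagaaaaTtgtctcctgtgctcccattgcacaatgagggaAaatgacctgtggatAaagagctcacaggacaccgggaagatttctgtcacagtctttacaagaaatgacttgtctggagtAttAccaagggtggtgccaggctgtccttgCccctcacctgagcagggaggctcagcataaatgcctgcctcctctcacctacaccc
Because these genes are near-identical copies, how far each probe separates them is uncertain.

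Saa1 read 2.51, 2.55, 4.29, 4.63 and 3.38 in D0 and 4.41, 4.99, 4.32, 3.22 and 5.82 in D3. The difference was 1.08 (interval 0.07 to 2.09, unadjusted p 0.0372, adjusted p 1). Saa2 read 6.11, 6.29, 8.12, 8.24 and 7.63 in D0 and 8.64, 8.73, 8.14, 7.38 and 8.98 in D3. Its difference was 1.10 (interval 0.30 to 1.89, unadjusted p 0.00983, adjusted p 0.97). In both genes D0 mice 1 and 2 were the lowest of all 10 mice, and D3 mice 18 and 19 lay inside the D0 range, as did mouse 16 in Saa1. Of 5 neutrophil markers 3 were tested, with differences of 0.20 (Camp), 0.18 (S100a8, near background) and 0.36 (S100a9) and unadjusted p of 0.271 or more. Their mean log2 ratio was -0.06, 0.07, 0.16, 0.40 and 0.56 in D0 and 0.38, 0.33, 0.46, -0.10 and 1.31 in D3. It was low in D0 mice 1 and 2 and in D3 mouse 19 and highest in mouse 20, as were Saa1 and Saa2. D0 mice 3 and 5 went the other way, with means of 0.16 and 0.56 beside Saa1 values of 4.29 and 3.38. The part of these markers in the Saa1 and Saa2 differences was not tested. By slide, the Saa1 difference was 2.87, 2.15 and -0.69, and that of Saa2 was 2.11, 2.40 and -0.42, so the sign turned on the third slide. The related Saa3 and Saa4 differed by -0.05 and -0.03. Haptoglobin (Hp) differed by 0.05 and the acid glycoprotein gene Orm1 by -0.03. The siderophore-binding Lcn2 differed by 0.35 (interval -0.30 to 1.01).

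Of 24 complement genes 1 was higher at the unadjusted limit, C8a, a subunit of the membrane attack complex (difference 0.60, unadjusted p 0.0195, second probe 0.78, and 0.52 to 0.79 with 1 mouse left out). No complement gene was higher without D0 mouse 1 or D3 mouse 17, 1 was lower without D3 mouse 17, and 2 were higher after normexp. Of 22 interferon response genes 1 was higher, the transcription factor Irf1. It read -0.64, -0.66, -0.60, -0.45 and -0.57 in D0 and 0.16, 0.02, -0.28, 0.00 and -0.64 in D3. Again 4 D3 mice exceeded all D0 mice and mouse 20 lay among the lowest of them (difference 0.44, unadjusted p 0.00159, adjusted p 0.97). By slide the Irf1 difference was -0.04, 0.76 and 0.38. The higher count of this list was 2 without D0 mouse 2 and 0 after median centring, and 1 gene was lower without D3 mouse 18. None of 12 tested chemokine and inflammation genes reached the limit.

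Few metabolic genes reached the unadjusted limit. None of 25 PPAR alpha targets, 22 cholesterol synthesis genes, 19 fatty acid synthesis genes or 14 bile acid genes did so, and their medians were 0.00, 0.07, 0.02 and -0.03. Cyp7a1, the rate-limiting enzyme of bile acid synthesis, differed by -0.34 with an interval of -1.26 to 0.58. Of 20 urea cycle and amino acid genes 1 was lower, Hpd in tyrosine breakdown (-0.24, unadjusted p 0.00987). The lower count was 3 with slide as a block, 2 after own loess and without D0 mouse 5 or D3 mouse 17, and 0 after median centring, after normexp and with the array column, where 1 was higher. Of 16 glucocorticoid and fasting genes 2 were higher (background 3.02%), the gluconeogenic enzyme Pck1 (0.32, unadjusted p 0.0214) and the kinase Sgk1 (0.34, unadjusted p 0.0338). None was higher after median centring or without D0 mouse 1, D0 mouse 2 or D3 mouse 17, and 2 were lower without D0 mouse 2 and 1 without D3 mouse 17. The count of higher genes was 1 with only the 10 arrays, array weights or the array column, and without D0 mouse 5 or D3 mouse 16, 18 or 19. Igfbp1, a fasting-induced binding protein of insulin-like growth factors, went the other way with a wide spread. It read 6.98, 4.51, 6.32, 6.52 and 6.44 in D0 and 5.97, 6.63, 3.98, 2.73 and 5.74 in D3 (difference -1.14, interval -2.47 to 0.18). With 1 mouse left out the Igfbp1 difference ran from -1.56 to -0.57. By slide it was -0.97, 1.8 and -3.07. Of 20 nuclear receptors and liver factors 1 was lower, Foxa2 (-0.45, unadjusted p 0.0491). With 1 mouse left out that list had 0 or 1 gene lower, with 0 lower without D0 mouse 2, 3 or 5 or D3 mouse 16, 17 or 18, and 0 or 1 higher. The lower count was also 0 after own loess, median centring and normexp, with slide as a block, the array column or only the 10 arrays, and over probes detected on all 5 arrays of a group. With array weights 2 were higher and 1 lower. In the immediate early list 1 of 16 was lower, the mRNA decay factor Zfp36 (-0.31, unadjusted p 0.0385). The lower count ran from 0 (without D0 mouse 3, D0 mouse 4 or D3 mouse 18, and after own loess, normexp or median centring) to 3 (without D0 mouse 2). It was 2 without D0 mouse 1 or D3 mouse 17, with slide as a block and with the array column. Egr1, the growth factor response gene of that list, differed by -0.99 with an interval of -2.10 to 0.11.

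None of 17 heat shock, 18 endoplasmic reticulum stress, 23 plasma protein, 17 male-biased or 9 female-biased genes reached the limit. The stress kinase homologue Trib3 was the endoplasmic reticulum stress gene with the smallest p (difference 0.65, unadjusted p 0.103). Of all lists with 0 at the limit, 6 stayed at 0 in every limma alternative and with each mouse left out, namely Ah receptor partners, CAR and PXR targets, conjugation, cholesterol synthesis, female-biased and chemokine genes. Heat shock genes reached 2 lower with only the 10 arrays, and PPAR alpha targets, fatty acid and bile acid synthesis, male-biased, endoplasmic reticulum stress and plasma protein genes at most 1 in either direction. Over all 28 lists the medians lay between -0.19 and 0.30, with the clock lists at both ends in the fit of all 19 arrays without covariates.

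**Figure D4:**
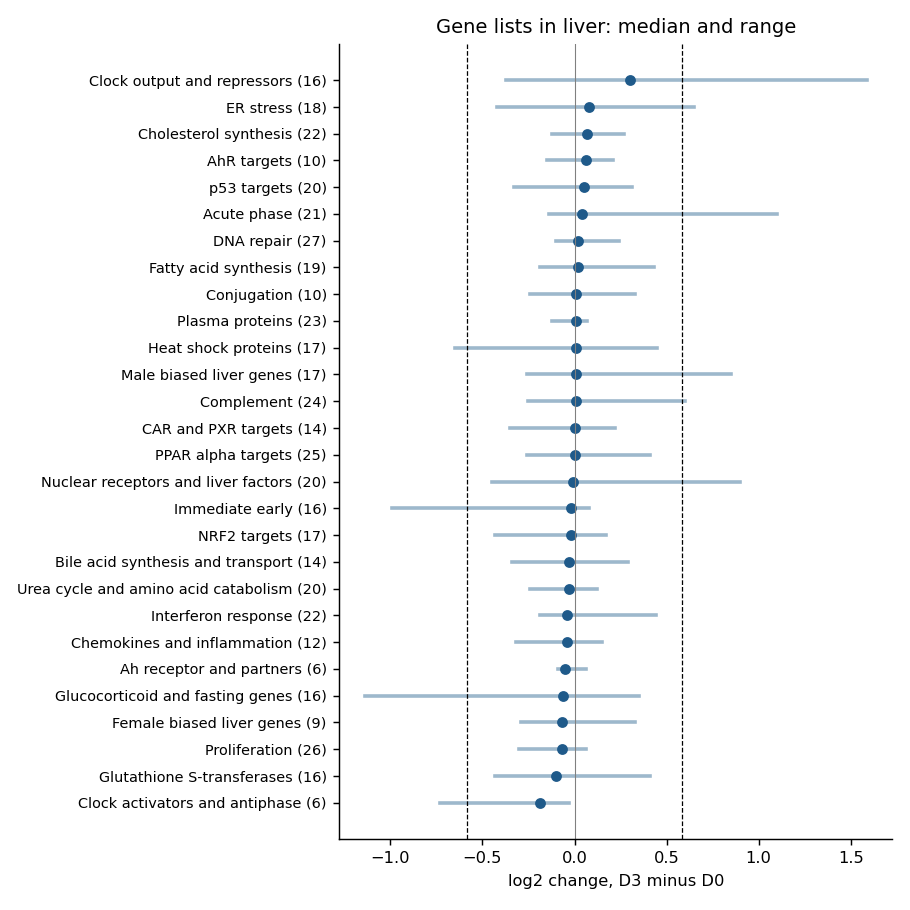
Median (point) and full range (line) of the log2 difference between D3 and D0 (x axis) over the tested genes of each of the 28 lists, with the number of genes in brackets. Dashed lines mark 1.5-fold; the medians run from -0.19 (clock activators and antiphase) to 0.30 (clock output and repressors).

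At the level of single genes, taking the brightest probe of each, 25 of 12654 named genes (0.198%) passed the unadjusted limit of 0.05 with a difference of 1.5-fold or more, 18 higher and 7 lower. The groups overlapped in 24 of the 25, and 18 had the same sign on all 3 slides, where a slide held 1 or 2 mice per group. Because the 25 were chosen by the difference over these same arrays, that agreement is partly built in and is no support. The exception to overlap was Acnat2, a member of the acyl-coenzyme A:amino acid N-acyltransferase family. It read 4.99, 5.31, 5.31, 5.29 and 5.79 in D0 and 3.91, 4.26, 4.37, 3.75 and 4.81 in D3. Every D3 mouse lay below every D0 mouse (difference -1.12, standard error 0.31, interval -1.76 to -0.47, unadjusted p 0.00179, adjusted p 0.97). The second probe gave -1.41, with overlap, since D3 mouse 20 (4.66) lay above D0 mouse 1 (4.41). By slide the difference was -0.57, -1.22 and -1.24, and with 1 mouse left out it stayed between -1.27 and -1.0. At D1 and D2, against the same controls, Acnat2 differed by -0.58 and -1.14. 

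Tff3, a secreted trefoil peptide of mucous epithelia, had the lowest difference of the 25. It read 5.11, 5.11, 4.62, 4.51 and 3.97 in D0 and 3.05, 3.64, 3.05, 3.16 and 4.22 in D3. Mouse 20 overlapped with D0 and the other 4 did not (difference -1.24, unadjusted p 0.00915, adjusted p 0.97). Other lower genes were Raet1e (a ligand of a natural killer cell receptor, -0.66), Ripply2 (a developmental repressor, -0.68), Ptk2b (a focal adhesion family kinase, -0.90) and Gspt2, a translation termination factor. The second Ptk2b probe gave -0.02, so its probes disagreed. Gspt2 was well above background on no D3 array and on 3 of the 5 in D0, so that its D3 level is only an upper bound and no fold is given.

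Slc25a25, a mitochondrial carrier of ATP-magnesium and phosphate, was higher by both of its probes. It read 0.86, 2.78, 1.81, 0.32 and 1.23 in D0 and 2.56, 2.11, 2.93, 2.97 and 1.87 in D3. D0 mouse 2 reached the D3 range and the other 4 D0 mice lay below it (difference 1.09, unadjusted p 0.00605, adjusted p 0.97; second probe 1.18). On the second slide, which held that mouse, the difference was -0.45. The apoptosis activator Bmf differed by 0.79 (unadjusted p 0.00947) and the carboxylesterase Ces2b by 0.62. The metalloprotease gene Adamdec1, the antigen-presenting H2-Aa and the interferon-induced Oasl1 differed by 0.76, 0.77 and 0.83. Slc16a5, a monocarboxylate transporter, and Kcp, a modulator of bone morphogenetic proteins, differed by 0.70 and 0.67, and the membrane protein gene Tmem91 by 0.81. Tmem91 gave 0.43 without D3 mouse 20 and H2-Aa 0.50 without D3 mouse 16, both below 1.5-fold. Ces2b, Adamdec1, Slc16a5 and Kcp, and among the lower genes Raet1e and Ripply2, also came below 1.5-fold when certain single mice were left out, with lowest sizes of 0.48, 0.55, 0.55, 0.52, -0.50 and -0.50.

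**Figure D5:**
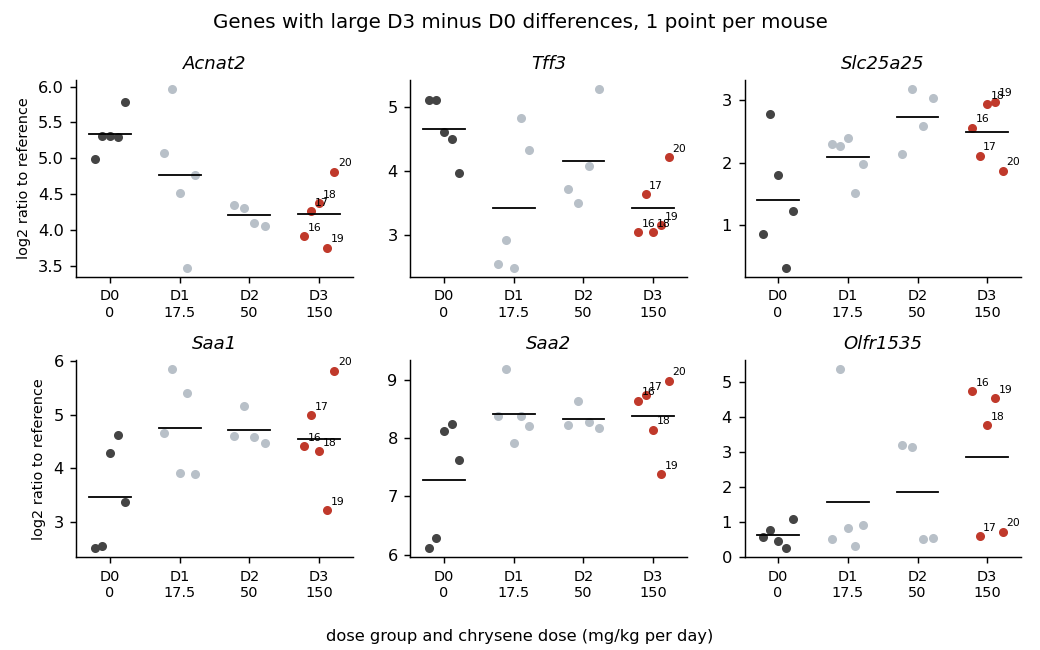
Log2 ratio to reference (y axis) in liver by dose group (x axis, mg/kg per day) for 6 of the 25 genes, 1 point per mouse with bars at group means and mouse numbers on D3. Acnat2, by the probe drawn, is the gene without overlap between D0 and D3, and Olfr1535 splits the D3 mice, with 3 at 3.77 or more and 2 at 0.72 or less.

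A few of the largest differences came from probes that took separate levels in individual mice. Olfr1535, an olfactory receptor gene, read 0.57, 0.77, 0.44, 0.24 and 1.07 in D0 and 4.75, 0.59, 3.77, 4.54 and 0.72 in D3. Mice 16, 18 and 19 were high and mice 17 and 20 were at the D0 level (difference 2.26, interval 0.26 to 4.25, unadjusted p 0.029, adjusted p 0.987). One D1 mouse (mouse 7, 5.38) and 2 D2 mice (mouse 11 at 3.19 and mouse 12 at 3.14) were high as well. The peptide hormone gene Nmb (1.52, 1.17 and 0.67 in mice 16, 19 and 18, and -0.52 and -0.50 in mice 17 and 20) and the noncoding transcript 9330151L19Rik had their high D3 values in the same 3 mice.

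Slc17a3, an organic anion transporter, read 6.31, 0.50, 3.31, 6.49 and 6.4 in D0 and between 6.35 and 6.51 in all 5 D3 mice. D0 mice 2 and 3 alone lay below the others, the difference was 1.83 (unadjusted p 0.0297), and the second probe gave 0.07. Without D0 mouse 2 the first probe gave 0.81. Serpina3f, a serine protease inhibitor, read -1.16, -0.87, -0.91, -0.75 and 2.00 in D0 and 2.08, 1.17, 1.01, 1.84 and 1.17 in D3. Its signal stood well above background on 1 D0 array and on all 5 D3 arrays. The difference of 1.79 (unadjusted p 0.00572) therefore rests on D0 signals near background in 4 mice, and the second probe gave -0.15.

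The smallest p of all probes belonged to Tle1, a transcriptional corepressor, named here after its values were seen. It read 1.97, 1.76, 2.18, 1.78 and 2.00 in D0 and 1.61, 1.30, 1.42, 1.37 and 1.52 in D3. The groups did not overlap (difference -0.49, interval -0.68 to -0.30, unadjusted p 2.91e-05, adjusted p 0.721). Its other probes gave -0.35 and 0.39, the latter with 1 D3 mouse (mouse 19) at 2.78.

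Whether the D3 effect in liver differed from that in the other tissues was tested directly. Of the same 24795 probes, 0 (0%) passed both limits in the contrast with lung (smallest adjusted p 0.181) and 0 (0%) in the contrast with forestomach (0.175). By unadjusted p alone, 2281 probes (9.20%) were at 0.05 or less for lung and 2123 (8.56%) for forestomach. Without D3 mouse 16, 1 probe passed in the contrast with lung, and without D3 mouse 19, 3 passed in the contrast with forestomach. Acnat2 was well above background on 0 lung and 3 forestomach arrays, so its contrasts are not given. For Saa1 the D3 effect was -0.43 in lung and 0.54 in forestomach, and the adjusted p of the contrasts were 0.631 and 0.903.

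The position of the arrays on the slide was nearly aligned with dose. In liver, 4 of the 5 D0 arrays lay in column 1 and 4 of the 5 D3 arrays in column 4 of the slides, so that column and dose can hardly be told apart from these 10 arrays. With the column number as a single linear covariate over all 19 liver arrays, 23 probes passed both limits, 3 higher and 20 lower. The smallest adjusted p there was 2.17e-05, for Gspt2, in which D0 mouse 1, the D0 array in column 4, read 2.60 and the other D0 mice -0.57 to -0.12. Other named genes of the 23 were Plagl1 (an imprinted zinc finger gene, well above background on 3 of 5 D0 and 4 of 5 D3 arrays) and Hpgd (prostaglandin breakdown, on 5 and 5). Their differences were -1.73 and 2.53 with the covariate and -0.41 and 0.73 without it. How far the differences of Plagl1 and Hpgd rest on D0 mouse 1 was not tested. Tomm7 (mitochondrial import) was also called, but was well above background on 1 of 5 arrays in each group.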

How the data were processed

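RNA from the liver of 19 mice was hybridised on 2-colour arrays, 1 array per mouse, with sample RNA in Cy5, the reference in Cy3 and no dye swap. The deposited scanner files give median intensity values for spots and their background, quantified by Feature Extraction 10.7.3.1 per the file headers. The authors also deposited a table of log2 ratios, for which LOWESS was run per array on median signals with no background subtracted, and these ratios were used here. Their scale and direction were checked against loess ratios computed from the intensities (correlation 0.997 on the liver arrays, slope 1.00). The median ratio of each liver array lay between -0.035 and -0.021.

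Groups and mouse numbers came from the sample titles. The 3671 control spots were left out, 59305 spots gave 55681 probes, and 26413 probes (47.4%) were named through their RefSeq transcript in a table for GRCm38.p6. A probe was tested if at least 3 of the 19 liver arrays had Cy5 well above background for it. limma 3.58.1 (R 4.3.3, lmFit and eBayes, two-sided) was fitted with 1 mean per dose group over all 19 liver arrays, and p was adjusted over all 24795 probes by Benjamini-Hochberg. A call needed an adjusted p of at most 0.05 and 1.5-fold. The study's methods name MAANOVA, which was not run here. Its Fs statistic with shuffled residuals was computed with own code as an alternative. At the same limits the study lists a few genes for the highest chrysene dose in liver, so the count of 0 with Fs is not the study's result. Contrasts between tissues used 37 lung and liver arrays or 38 forestomach and liver arrays. Within a tissue each array is a separate mouse, and p-values measure the spread between mice. The tissue contrasts hold arrays of the same mice, and were also fitted with the mouse as a block. The number of arrays limits the precision. Functions were tested on simulated data.

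The comparison, the gene lists and the markers were chosen with earlier results of these data known. A gene is represented by its brightest probe. Genes were named where they had an unadjusted p of at most 0.05, 1.5-fold and no overlap (up to 12 in each direction), where they led a list (up to 4 by p), or for a fixed set of AhR, p53, clock and metabolic genes. Other genes past the unadjusted p and fold limits are also named. A few genes that these rules would name are counted but not reported here. Tef, Nfil3, Igfbp1, Egr1, Bcl6, Ahr, Tiparp, Htatip2, Mdm2, Tle1, further list members given with a difference and the genes called with the array column were chosen after their values were seen. Alternatives were other normalizations and filters, only the 10 D0 and D3 arrays, slide, column, array weights and each mouse left out.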

Additional observations from a re-analysis of the deposited data

Results flagged for a closer look

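Single mice stood apart from the other 4 of their group in 8 of 146 groups of named genes (73 genes in D0 and D3), where a gap of more than 0.71 of the range counted as apart. Chance marks about 1 in 20 such groups. The values of 7 are given. D3 mouse 20 was apart in Ces2b (5.80, others 6.64 to 6.80), Tmem91 (4.49, others 2.27 to 2.73), Ccng1 (-1.97, others -1.51 to -1.37) and Cyp4a14 (1.71, others 0.25 to 0.58). Cyp4a14, a fatty acid hydroxylase, was well above background on 1 D3 array. D0 mouse 5 was apart in Serpina3f (2.00, others -1.16 to -0.75). D0 mouse 1 was apart in Gspt2 (2.60, others -0.57 to -0.12) and D0 mouse 2 in Igfbp1 (4.51, others 6.32 to 6.98). Whether these are features of the animals, of single arrays or of slides was not tested.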

How the results depend on the processing

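The count of 0 probes called between D3 and D0 remained 0 without the fold limit, under every alternative normalization and filter, with slide as a block, array weights, only the 10 arrays, Fs and each mouse left out (smallest adjusted p 0.128, without D3 mouse 20). With Fs, 1220 probes had an unadjusted p of at most 0.05. The exception was the array column as a covariate, which gave 23, and which raised the 44 probes past unadjusted p and 1.5-fold to 223. That count was 27 after median centring and 35 to 90 with 1 mouse left out (90 without D3 mouse 20, 35 without D3 mouse 19). Counts for liver minus lung and liver minus forestomach were 0 to 1 and 0 to 3 with 1 mouse left out. With the mouse as a replicate block they were 0 and 0, with smallest adjusted p of 0.102 and 0.126. No paired analysis was possible because D0 and D3 share no mouse numbers. Of the 73 named genes 58 kept their sign in every fit that tested them. Signs turned after own loess in Kng1 (-0.02), and after median centring in Kng1 (-0.04), Cyp1b1 (-0.04), Ccng1 (0.00) and Mdm2 (0.00). With normexp they turned in Slco1a1 (0.06), Cyp1a2 (0.08) and Cyp1b1 (-0.09), with slide as a block in Cyp1b1 (-0.05), and with array weights in Cyp1a2 (0.01), Cyp1b1 (-0.05) and Per1 (-0.02). With the column covariate they turned in Foxa2 (0.08), Trib3 (-0.01), Ugt1a6a (-0.03), Cyp17a1 (0.03), Cyp2b10 (-0.18) and Bcl6 (-0.24). With 1 mouse left out, Cyp1a2 ranged from -0.04 to 0.04, Cyp1b1 from -0.09 to 0.09, Ccng1 from -0.01 to 0.15, Per1 from -0.04 to 0.35, Cyp2b10 from -0.25 to 0.70, Cyp4a14 from -0.12 to 0.25 and Ahr from -0.26 to 0.03. The cause of each turn was not tested. Genes near background, such as Cyp1a1, are limited by signal.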
